A study of Mus musculus with 6 samples.

Results

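Lipid droplets are the organelles in which hepatocytes store triglyceride and sterol esters, and the genes described here encode proteins of their surface and the lipases that empty them. They are 10 genes in all: the CIDE family (Cidea, Cideb, Cidec), the perilipins Plin1, Plin2, Plin4 and Plin5, the lipases Pnpla2 (adipose triglyceride lipase, ATGL) and Pnpla3, and G0s2, an inhibitor of ATGL. They were matched by symbol among the 22599 genes of the deposited tables, and all 10 were found. The set was chosen by function and partly selected on the spread of Cidea and Cidec between these libraries. That spread is therefore given as a description, with no test.

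RNA was measured by bulk sequencing in 6 mouse liver libraries that form 2 groups. NcoR1ΔHep mice (n = 3) lack the nuclear receptor corepressor NcoR1 in hepatocytes, and their genotype label calls this a knockdown. Flox mice (n = 3) carry the floxed Ncor1 alleles and are labelled WT. Both groups ate chow, and the titles of all 6 place them at 0 h, although their shared treatment label is liver ischemia-reperfusion, and surgery at 0 h is neither stated nor denied. The Cre driver and the age and sex of the mice are not stated in the labels. Nothing there ties a library to its own mouse, and a p-value here reflects library-to-library spread, which may be technical.

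The CIDE proteins sit where droplets touch, and Cidea and Cidec promote the transfer of lipid from a smaller to a larger droplet. They are abundant in adipose tissue, and in liver they are known for rising with steatosis, whereas Cideb is the form that normal hepatocytes express and takes part in the lipidation of very low density lipoprotein. Perilipins coat the droplet and limit the access of lipases: Plin1 is the adipocyte form, Plin2 the main coat in liver, and Plin5 a form of oxidative tissues that binds both ATGL and its coactivator ABHD5. ATGL takes the first fatty acid from triglyceride, ABHD5 activates it and G0S2 blocks it. Cidec, Plin2, Plin4, Plin5 and G0s2 are known targets of PPAR receptors, and Pnpla3 is a known target of the lipogenic factors SREBP-1c and ChREBP.

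The bases before the start sites of 3 members are printed, because Cidec and Plin4 were both highest in the library flox 1 while Pnpla3 was highest in another library. The sequences are RefSeq promoter windows on build GRCm38.p6. Each runs 5′ to 3′ on the gene's own strand and holds the 250 bases before the start. Cidec has a pair of annotated starts, at chr6:113435761-113436010 and chr6:113434765-113435014 on the minus strand. The Plin4 window is chr17:56109783-56110032 on the minus strand and the Pnpla3 window chr15:84167566-84167815 on the plus strand. Capitals mark a match to AGGTCA (nuclear receptor core motif), CACGTG (E-box), TCACNCCAC (sterol regulatory element), GGGCGG (GC box), CCAAT (the CCAAT box), TATAAA (the TATA box) or TGACGTCA (cAMP response element), read on both strands.
Cidec upstream start: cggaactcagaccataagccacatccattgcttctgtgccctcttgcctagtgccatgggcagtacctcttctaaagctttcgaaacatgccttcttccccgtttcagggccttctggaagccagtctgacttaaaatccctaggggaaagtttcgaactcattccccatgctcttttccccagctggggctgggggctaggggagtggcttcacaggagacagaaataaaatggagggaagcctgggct
Cidec downstream start: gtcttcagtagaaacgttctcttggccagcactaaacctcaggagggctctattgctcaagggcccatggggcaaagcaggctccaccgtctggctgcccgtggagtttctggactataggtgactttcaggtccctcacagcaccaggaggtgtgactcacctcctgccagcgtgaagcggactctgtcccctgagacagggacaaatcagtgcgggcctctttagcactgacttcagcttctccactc
Plin4: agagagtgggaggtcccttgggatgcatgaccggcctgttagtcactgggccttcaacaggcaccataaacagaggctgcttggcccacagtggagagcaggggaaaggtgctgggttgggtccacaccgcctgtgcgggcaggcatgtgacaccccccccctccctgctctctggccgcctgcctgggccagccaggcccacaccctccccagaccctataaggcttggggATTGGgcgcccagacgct
Pnpla3: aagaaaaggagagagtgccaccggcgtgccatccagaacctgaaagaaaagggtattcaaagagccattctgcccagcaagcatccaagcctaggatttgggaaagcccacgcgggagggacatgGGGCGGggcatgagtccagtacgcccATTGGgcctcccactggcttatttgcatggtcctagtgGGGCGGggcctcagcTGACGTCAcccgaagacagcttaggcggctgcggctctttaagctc

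Neither Cidec window held any of these letters. The Plin4 window held only a CCAAT match, at -18 to -14 from the start, a motif found in 33.8% of the 32817 windows of the table. The Pnpla3 window held GC boxes at -125 and -61, a CCAAT match at -99 and the full cAMP response element at -46 to -39. GC boxes were in 32.7% of all windows and the full cAMP response element in 1.55%. The direct repeat of AGGTCA with 1 base between the copies (DR1, the letters of a canonical PPAR:RXR site) was in 0.0335% of all windows and in none of the 11 windows that matched 9 of the 10 members. AGGTCA alone was in 14.0% of windows, and among the members in Plin2 (-218) and Plin5 (-170). These matches describe letters in a short window and nothing about what binds there.

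The libraries held 36975231 to 38470468 counts each. Ncor1 had 5.34, 6.63 and 4.93 FPKM in NcoR1ΔHep 1, 2 and 3, against 6.78, 6.70 and 7.72 FPKM in flox 1, 2 and 3 (log2 fold change -0.31, SE 0.21, edgeR adjusted p = 0.931). The genotypes therefore rest on the labels. NcoR1ΔHep 1 carried 17138 counts of Xist, a transcript of the inactive X chromosome, against 6 to 18 in the other 5 libraries. Of the Y-linked transcripts, it carried 12 counts of Ddx3y, against 2008 to 6275 in the others, and 6 of Eif2s3y, against 1420 to 2320. By these transcripts NcoR1ΔHep 1 reads as female and the other 5 as male, so sex was not balanced between the groups. The 10 hepatocyte markers summed to 110390, 110640 and 112230 CPM (counts scaled to library size) in NcoR1ΔHep and to 121860, 121720 and 101130 CPM in flox, so the tissue label was met in all 6. Across all tested genes, NcoR1ΔHep 1 was the library most often highest (29.1% of genes) and most often lowest (28.3%). Flox 1 stood apart in the 10 liver endothelial markers, each of which was highest there. They summed to 289, 158 and 114 CPM in NcoR1ΔHep 1, 2 and 3, against 498, 174 and 255 CPM in flox 1, 2 and 3. In bulk tissue, fewer cells of a type and less RNA per cell cannot be told apart.

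The genotype comparison asks whether loss of NcoR1 from hepatocytes changed these genes. Of the 9 members that passed the count filter, Cidea and Cidec were given no test in this comparison of levels. None of the other 7 was called (edgeR, Benjamini-Hochberg adjusted over 13205 genes), and over all genes the share called was 0.00%. The smallest adjusted p of any gene was 0.931. DESeq2 called 5 genes (0.0246%), none of them among these 7. At an unadjusted edgeR p under 0.05 there was 1 of the 7, Plin4, which was lower in NcoR1ΔHep; the share over all genes was 3.35% (1.43% higher and 1.92% lower). DESeq2 gave 3.02% at that level (1.55% higher and 1.47% lower). No member had groups that did not overlap in scaled CPM, which 8.82% of all genes had (3.29% higher and 5.53% lower). Of the 9 members, 4 were higher and 5 lower in NcoR1ΔHep, with a median log2 fold change of -0.40, beside 0.03 over all tested genes. The lower members include Cidea (-4.52) and Cidec (-2.15), whose spread chose the set, so this median is no result about the set. Among the other 7, only Plin2, Plin4 and Plin5 were lower, and the middle value was that of Cideb, 0.12. Without flox 1, 5 of the 9 were higher and 4 lower and the median was 0.07.

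**Figure D1:**
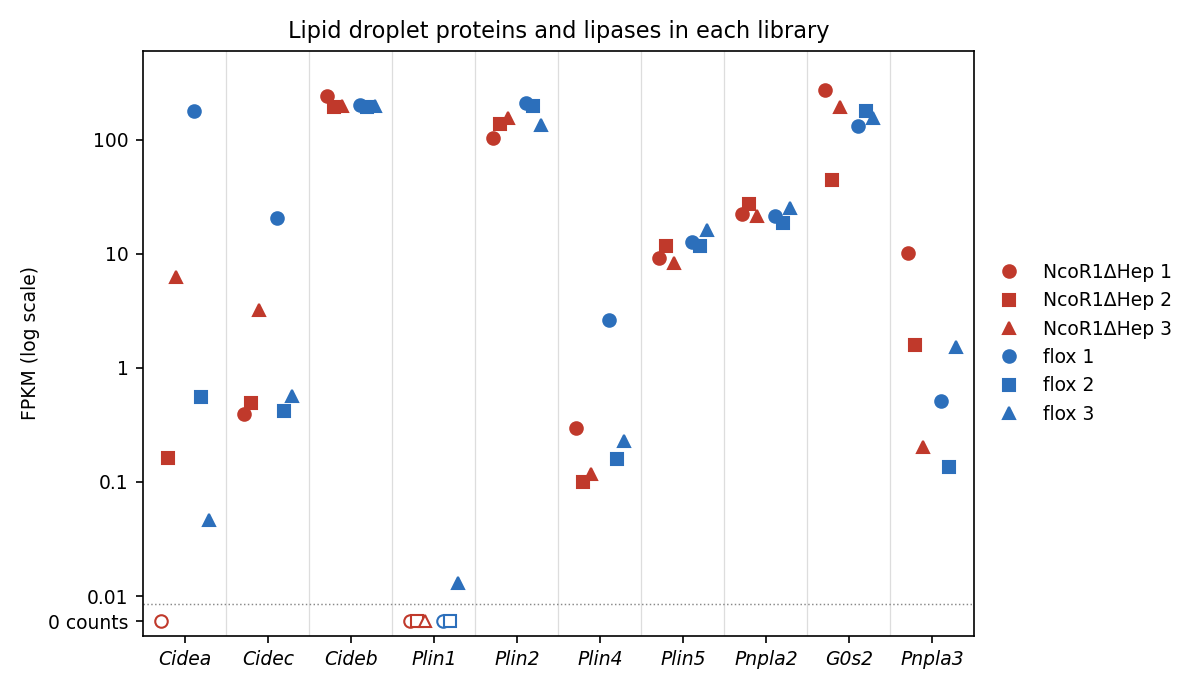
FPKM (log axis) of the 10 genes in each of the 6 libraries, with NcoR1ΔHep in red to the left of flox in blue and a marker shape per replicate number; open symbols under the dotted line are libraries with 0 counts. Cidea, Cidec and Plin4 have their highest point in flox 1, Pnpla3 in NcoR1ΔHep 1, and Cideb hardly varies.

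Cidea was the most variable member. It had 0, 0.161 and 6.24 FPKM in NcoR1ΔHep 1, 2 and 3, against 179, 0.558 and 0.0465 FPKM in flox 1, 2 and 3. These are 0, 7 and 271 counts, against 7908, 25 and 2 counts. The level in flox 1 was 28.7 times that in NcoR1ΔHep 3, the next highest library, and 96.3% of all Cidea counts came from flox 1. A count of 0 in NcoR1ΔHep 1 allows up to 3 counts, or 0.0688 FPKM, for counting error only. By level, Cidea was gene number 366 of the table in flox 1, number 4181 in NcoR1ΔHep 3 and number 9914 in flox 2, with the other 3 libraries lower still. Its range of log2(CPM + 1) over the 6 libraries was the 7th widest of 13205 tested genes. The fitted log2 fold change was -4.52 (SE 2.54), and it was 2.89 without flox 1 and -9.39 without NcoR1ΔHep 3. Its direction between the genotypes was thus set by a single library.

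Cidec followed Cidea from library to library at a lower level. It had 0.395, 0.489 and 3.22 FPKM in NcoR1ΔHep, against 20.5, 0.415 and 0.570 FPKM in flox, so flox 1 was again highest and NcoR1ΔHep 3 second. Flox 1 stood 6.37 times above NcoR1ΔHep 3. The remaining 4 libraries lay between 0.395 and 0.570 FPKM, on 26 to 37 counts. The ratio of Cidea to Cidec was not constant: it was 8.72 in flox 1 and 1.94 in NcoR1ΔHep 3. Over flox, its log2 fold change was -2.15 (SE 1.45) with all libraries and 1.56 without flox 1.

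Cideb, the hepatocyte form, was nearly level. It had 240, 194 and 197 FPKM in NcoR1ΔHep, against 200, 192 and 196 FPKM in flox. Only NcoR1ΔHep 1 left the band of 192 to 200 FPKM that held the other 5 libraries. Its log2 fold change was 0.12 (SE 0.20, 95% interval -0.34 to 0.58, edgeR adjusted p = 0.952), and 95.5% of tested genes had a range as wide or wider. Exons of Nop9, on the opposite strand, cover 76.3% of Cideb's exon bases in GENCODE M21, and whether counting used strand is unknown here, so Cideb counts may include Nop9 reads. Nop9 itself had 403 to 753 counts, where Cideb had at least 8505.

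**Figure D2:**
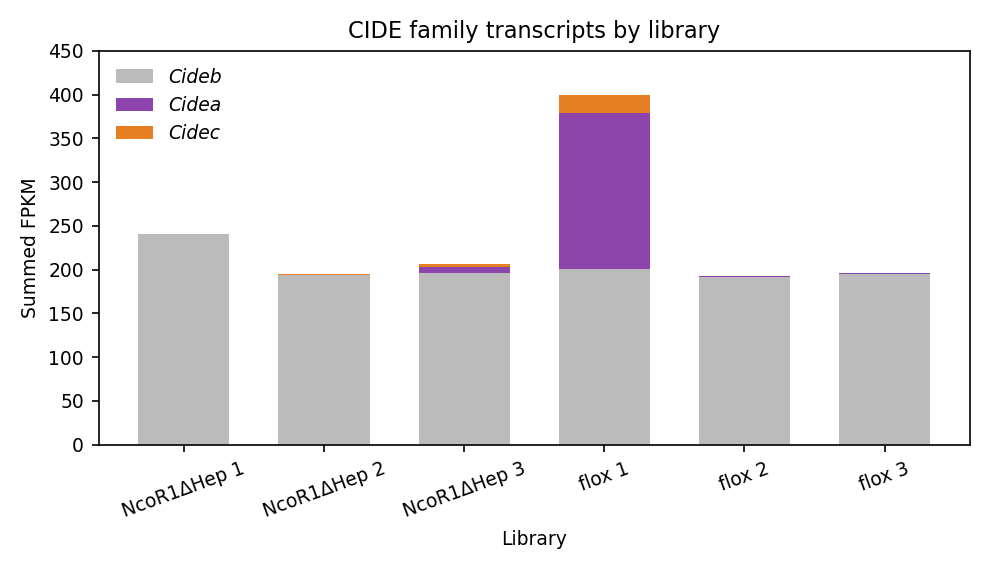
Summed FPKM of Cideb (grey), Cidea (purple) and Cidec (orange) in each library, as stacked bars from 0. The sum is 400 FPKM in flox 1, of which Cidea is 44.8%, and 193 to 241 FPKM in the other 5 libraries, of which Cideb is at least 95.4%.

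Within the CIDE family, the sum of the 3 transcripts was 241, 195 and 206 FPKM in NcoR1ΔHep, against 400, 193 and 196 FPKM in flox. Cideb made up 99.8%, 99.7% and 95.4% of it in NcoR1ΔHep, against 50.1%, 99.5% and 99.7% in flox. In flox 1, Cidea alone reached 0.894 of the level of Cideb. Cidec was 5.13% of the family total in flox 1.

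Among the perilipins, Plin1 was essentially absent: 1 read in flox 3 and 0 in each of the other 5 libraries, which allows up to 0.0389 FPKM in NcoR1ΔHep 2 and up to 0.0383 FPKM in flox 1. It did not pass the count filter. Plin1 is the coat of adipocyte droplets, and other adipocyte genes were read beside it. Of 13 adipocyte markers, 11 were in the table and 7 passed the filter. These 7 summed to 3809, 4248 and 6698 CPM in NcoR1ΔHep, against 6367, 5856 and 3872 CPM in flox, and Car3 and Pck1, which hepatocytes also express, had the highest levels of the list. Adiponectin (Adipoq) had 0, 1 and 0 counts in NcoR1ΔHep, against 0, 1 and 14 in flox, so it was at 0 in flox 1. Ucp1, the uncoupling protein of brown fat, had 0 counts in all 6. Of the 7 tested markers, 2 (28.6%), Cfd and Fabp4, were highest in flox 1 in scaled CPM, beside 16.4% of all tested genes. In FPKM the lipase gene Lpl was highest there too. Adrb3 and Slc2a4 were highest in NcoR1ΔHep 1, Car3 in NcoR1ΔHep 3 and Pck1 in flox 2. Adipsin (Cfd) had 0.608, 0 and 11.5 FPKM in NcoR1ΔHep, against 114, 0.338 and 1.14 FPKM in flox. Fabp4, a fatty acid binding protein of adipocytes, macrophages and endothelium, had 10.8, 8.95 and 5.14 FPKM in NcoR1ΔHep, against 20.4, 8.01 and 10.4 FPKM in flox (log2 fold change -0.60, SE 0.35, edgeR adjusted p = 0.931). Retn, which encodes resistin, had 18 counts in flox 1, 1 in flox 3 and 0 elsewhere. With each of the 7 tested markers weighted equally, their mean log2 level, relative to the mean over the libraries, was -0.35, -0.42 and 0.26 in NcoR1ΔHep, against 0.83, -0.18 and -0.15 in flox. This mean was highest in flox 1 and second in NcoR1ΔHep 3, as Cidea and Cidec were. Cfd weighed most in it, with 4007 counts in flox 1 and 395 in NcoR1ΔHep 3, against 0 to 39 in the others. Cfd is also among the genes most like Cidec in pattern, and the mean without Cfd was not computed. The part of adipocyte RNA in the Cidea and Cidec values was not tested.

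Plin2, the main liver coat, had 104, 136 and 153 FPKM in NcoR1ΔHep, against 207, 195 and 133 FPKM in flox. Flox 1 and flox 2 were the highest libraries, while flox 3 lay among the NcoR1ΔHep values, so the groups overlapped. The mean was 131 ± 25.0 FPKM in NcoR1ΔHep and 179 ± 39.5 FPKM in flox (SD, n = 3 each), a log2 fold change of -0.40 (SE 0.29, 95% interval -1.06 to 0.26, edgeR adjusted p = 0.931). The same 2 flox libraries were low in Dbp, a clock output gene, which had 92.6, 41.9 and 37.6 FPKM in NcoR1ΔHep, against 0.948, 3.76 and 47.2 FPKM in flox. The part of clock phase in the Plin2 values was not tested.

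Plin4, an adipocyte and muscle perilipin with a long repeat region, was low everywhere except in flox 1. It had 0.296, 0.0990 and 0.118 FPKM in NcoR1ΔHep, against 2.63, 0.159 and 0.227 FPKM in flox. Flox 1 held 74.8% of its counts and stood 8.91 times above NcoR1ΔHep 1. Unlike Cidea and Cidec, Plin4 was not raised in NcoR1ΔHep 3, which had 31 counts against 26 in NcoR1ΔHep 2. The log2 fold change was -2.45 (95% interval -4.75 to -0.15, unadjusted p = 0.0393, edgeR adjusted p = 0.931) and -0.24 without flox 1.

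Plin5, which tethers ATGL and ABHD5 at the droplet, had 9.09, 11.7 and 8.32 FPKM in NcoR1ΔHep, against 12.7, 11.7 and 16.1 FPKM in flox. The groups met at a single point: NcoR1ΔHep 2 with 11.72 FPKM lay just above flox 2 with 11.68 FPKM. The mean was 9.71 ± 1.78 FPKM in NcoR1ΔHep and 13.5 ± 2.34 FPKM in flox (SD, n = 3 each). The log2 fold change was -0.46 (SE 0.23, 95% interval -0.99 to 0.06, edgeR adjusted p = 0.931), and it kept its sign without any single library (-0.60 to -0.30). Plin4 and Plin5 are neighbours on chromosome 17, 1.80 kb apart in GENCODE M21, and flox 1, where Plin4 was 8.91 times its next highest value, was not the highest library for Plin5.

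Plin3, the ubiquitous perilipin and no member of the set, had 13.5, 17.4 and 11.1 FPKM in NcoR1ΔHep, against 14.1, 11.3 and 14.6 FPKM in flox. The order of the perilipins by level per length was the same in each library for Plin2, at 104 FPKM or more, and for Plin4 and Plin1, at 2.63 FPKM or less. Plin3 and Plin5 lay between them, with Plin3 above Plin5 in all but flox 2 and flox 3.

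**Figure D3:**
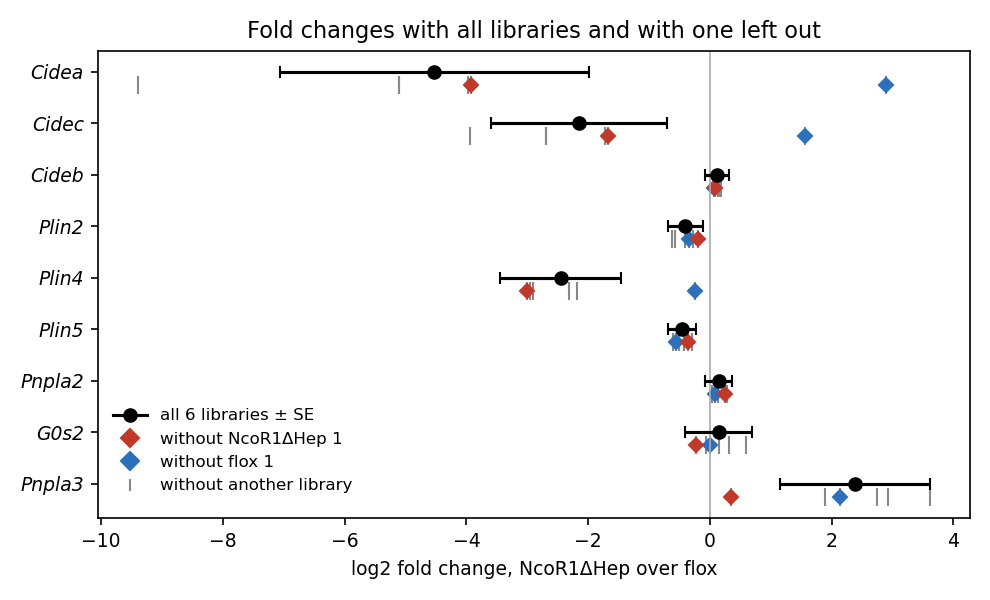
Log2 fold change, NcoR1ΔHep over flox, of the 9 members that passed the count filter (black points, bars are the standard error), and under each the values with 1 library left out (red diamond, without NcoR1ΔHep 1; blue diamond, without flox 1; grey ticks, the other 4). Without flox 1 the values of Cidea and Cidec turn positive and that of Plin4 is -0.24; without NcoR1ΔHep 1 the value of Pnpla3 is 0.35.

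On the lipase side, Pnpla2 had 22.2, 27.3 and 21.2 FPKM in NcoR1ΔHep, against 21.3, 18.7 and 25.0 FPKM in flox. The groups overlapped throughout. Its log2 fold change was 0.14 (SE 0.22, 95% interval -0.35 to 0.64, edgeR adjusted p = 0.949), and the interval includes a change of either sign. Pnpla2 was the second steadiest member after Cideb, with an SD over all 6 libraries of 13.6% of the mean.

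G0s2, the inhibitor of ATGL, varied more than its target. It had 273, 44.5 and 194 FPKM in NcoR1ΔHep, against 132, 177 and 153 FPKM in flox. NcoR1ΔHep held both the highest and the lowest library, and all flox values lay between them. The mean was 170 ± 116 FPKM in NcoR1ΔHep and 154 ± 22.4 FPKM in flox (SD, n = 3 each). The log2 fold change of 0.15 (SE 0.55, edgeR adjusted p = 0.983) turned to -0.23 without NcoR1ΔHep 1 and to 0.60 without NcoR1ΔHep 2.

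Ratios between genes of a library do not depend on how libraries are scaled, and 10 were computed after the levels had been seen. Some of them use Abhd5 or Plin3, which are not members of the set. G0s2 to Pnpla2 was 12.2, 1.63 and 9.14 in NcoR1ΔHep, against 6.20, 9.49 and 6.13 in flox. Plin5 to Pnpla2 was 0.408, 0.429 and 0.392 in NcoR1ΔHep, against 0.595, 0.626 and 0.645 in flox. All 3 NcoR1ΔHep ratios lay below all 3 flox ratios, with means of 0.410 ± 0.0186 in NcoR1ΔHep and 0.622 ± 0.0255 in flox (SD, n = 3 each). Abhd5 to Pnpla2 was 0.344, 0.413 and 0.447 in NcoR1ΔHep, against 0.763, 0.526 and 0.516 in flox, also without overlap. For the Plin5 and the Abhd5 ratio to Pnpla2, an exact two-sided permutation test gave p = 0.1 each, the smallest that 3 libraries against 3 allow. The adjusted p was 0.5 for both over the 10 ratios. The 10 include the ratios among Cidea, Cideb and Cidec, which rest on values that chose the set. Those ratios count in the adjustment only, and no result is read from them. Among all other tested genes, the ratio to Pnpla2 was lower in every NcoR1ΔHep library than in every flox library in 8.63% (higher in 1.04%, either way 9.67%), so such a separation is not rare. The other 8 ratios overlapped.

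**Figure D4:**
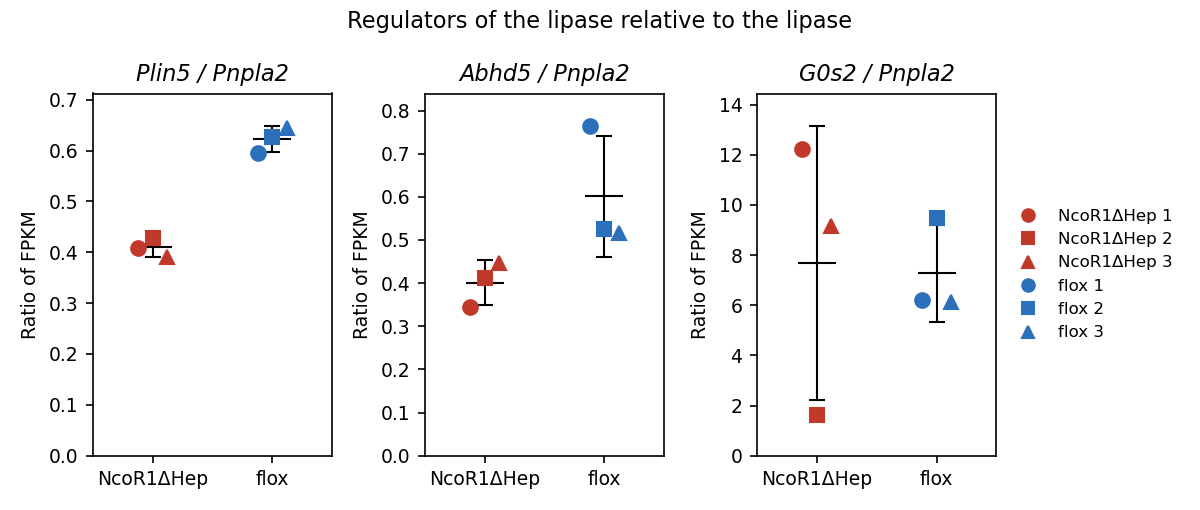
Ratio of FPKM of Plin5, Abhd5 and G0s2 to that of Pnpla2 in each library (axes from 0), NcoR1ΔHep left of flox; black lines are the mean and SD of 3 libraries. The Plin5 ratios are 0.392 to 0.429 in NcoR1ΔHep and 0.595 to 0.645 in flox, whereas the G0s2 ratios overlap.

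Pnpla3, the lipase-related protein whose human variant is associated with fatty liver, spanned 0.135 to 10.1 FPKM. It had 10.1, 1.60 and 0.203 FPKM in NcoR1ΔHep, against 0.510, 0.135 and 1.53 FPKM in flox. NcoR1ΔHep 1, the library with Xist, held 71.9% of its counts and stood 6.33 times above NcoR1ΔHep 2. The part of sex, or of what sets NcoR1ΔHep 1 apart over all genes, in this value was not tested. Among the 9 members, NcoR1ΔHep 1 was highest for 3 (Pnpla3, G0s2 and Cideb). NcoR1ΔHep 3 lay below 2 of the 3 flox libraries. The log2 fold change of 2.38 (SE 1.23, edgeR adjusted p = 0.931) was 0.35 without NcoR1ΔHep 1.

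Pnpla5, a lipase gene 44.7 kb from Pnpla3, shared the same 3 high libraries, with 2.23, 1.97 and 0.0819 FPKM in NcoR1ΔHep, against 0.380, 0.0908 and 1.64 FPKM in flox. Pnpla5, Srebf1 and Mlxipl were chosen after their values were seen. Thrsp, a lipogenic gene, had 1617, 1039 and 394 FPKM in NcoR1ΔHep, against 227, 136 and 1278 FPKM in flox. Srebf1, which encodes SREBP-1c, had 67.2, 54.2 and 49.2 FPKM in NcoR1ΔHep, against 21.5, 15.3 and 58.1 FPKM in flox, and so was also high in NcoR1ΔHep 3, where Pnpla3 was low. Mlxipl (ChREBP) had 93.9 FPKM in NcoR1ΔHep 1 and 12.6 to 28.8 FPKM in the other 5 libraries. Plin2 ran the other way from Pnpla3: Pearson's r of log2(CPM + 1) was -0.97 over the 6 libraries, a description over few points that share their libraries.

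**Figure D5:**
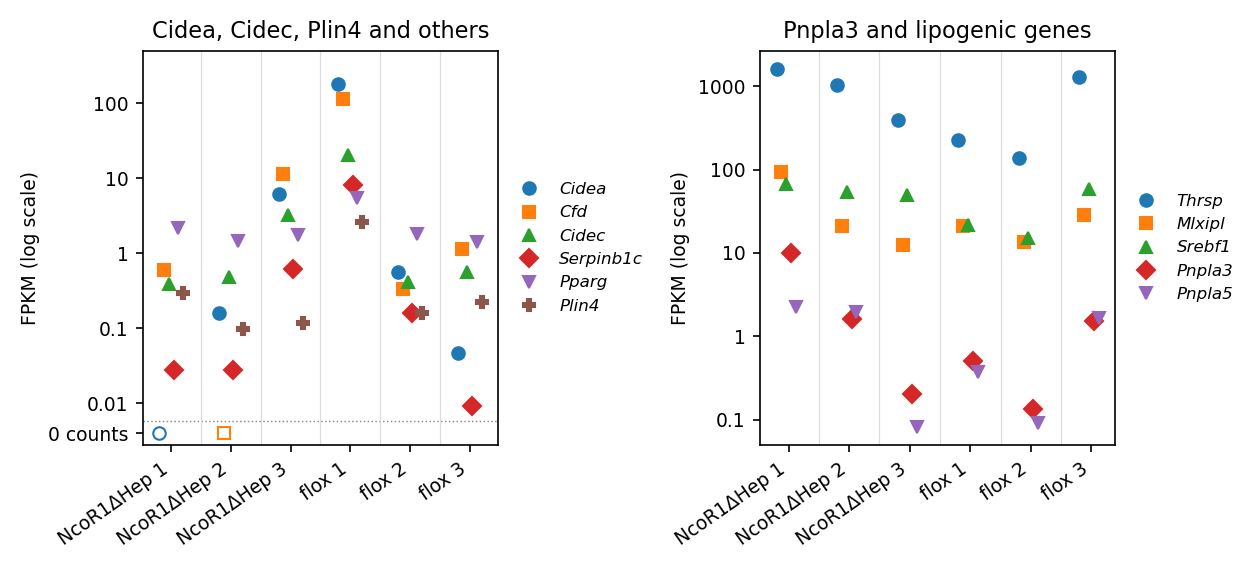
FPKM (log axis) by library. Left, Cidea, Cidec and Plin4 beside Cfd, Serpinb1c and Pparg, with open symbols for libraries with 0 counts. All 6 genes are highest in flox 1, as are 16.4% of all tested genes, and some of them were chosen by their pattern. Right, Pnpla3 beside Pnpla5 and the lipogenic genes Thrsp, Mlxipl and Srebf1; NcoR1ΔHep 1 is the highest library for all 5, as it is for 29.1% of all tested genes.

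The genes whose pattern was most like that of the 4 most variable members were found by Pearson's r of log2(CPM + 1) over the 6 libraries, given as a description. For Cidea they were Serpinb1c (r = 0.996), Kbtbd11 (0.991) and Clstn3 (0.990). For Cidec they were Kbtbd11 (0.996), Cfd (0.992) and Clstn3 (0.989). Cidea and Cidec themselves had r = 0.992. Serpinb1c, a serpin gene, had 0.0277, 0.0278 and 0.621 FPKM in NcoR1ΔHep, against 8.17, 0.162 and 0.00936 FPKM in flox. Clstn3 had 0.564, 0.724 and 1.44 FPKM in NcoR1ΔHep, against 3.85, 0.741 and 0.658 FPKM in flox. Each of these 4 similar genes was highest in flox 1 and second in NcoR1ΔHep 3, an order that follows from how they were chosen. With flox 1 left out, r with Cidea was 0.990 for Serpinb1c, 0.949 for Kbtbd11 and 0.982 for Clstn3. The libraries left in had also served to choose these genes, so these values are no independent check. Serpinb1c had few counts: 3, 3 and 67 in NcoR1ΔHep, against 897, 18 and 1 in flox.

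For Plin4 the most similar genes were Vash1 (0.996), Akr1c18 (0.986) and Atp1b2 (0.982), and r for Atp1b2 was 0.748 without flox 1. For Pnpla3 they were Rnf215 (0.998), Rad52 (0.997) and Tcirg1 (0.996). Rnf215 had 4.68, 3.12 and 2.16 FPKM in NcoR1ΔHep, against 2.93, 2.16 and 3.09 FPKM in flox, a far narrower range than that of Pnpla3.

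No gene of the pathway lists outside the set passed the edgeR test in either direction. Over all 13205 tested genes, 7069 were higher and 6136 lower in NcoR1ΔHep, with a median log2 fold change of 0.03. Counts of higher and lower genes in the lists are given beside this as a description, and no list was tested. Of 20 other lipolysis genes, 5 were higher and 15 lower in NcoR1ΔHep, with a median log2 fold change of -0.14 (-0.05 without NcoR1ΔHep 1). Lipa, the lysosomal acid lipase, had 43.0, 69.3 and 68.6 FPKM in NcoR1ΔHep, against 115, 109 and 67.5 FPKM in flox (log2 fold change -0.64, SE 0.31). Abhd5 had 7.66, 11.3 and 9.50 FPKM in NcoR1ΔHep, against 16.3, 9.80 and 12.9 FPKM in flox (-0.41, SE 0.25). Ces3a and Aadac, esterases of the endoplasmic reticulum, were the most abundant, at 793 ± 266 and 439 ± 121 FPKM in NcoR1ΔHep, against 1016 ± 138 and 492 ± 46.4 FPKM in flox (SD, n = 3 each).

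Of 23 tested genes of triglyceride and sterol ester synthesis, 9 were higher and 14 lower (median -0.09). Acsl3, an acyl-CoA synthetase of nascent droplets, had 11.04, 5.68 and 6.53 FPKM in NcoR1ΔHep, against 6.59, 3.42 and 4.98 FPKM in flox (0.66, SE 0.29). Gpat4, an acyltransferase of growing droplets, had 14.8, 22.7 and 15.1 FPKM in NcoR1ΔHep, against 29.0, 19.9 and 27.8 FPKM in flox (-0.52, SE 0.25). Dgat2, which makes triglyceride, and Acsl1 were the most abundant, at 201 ± 34.95 and 136 ± 29.9 FPKM in NcoR1ΔHep, against 173 ± 41.6 and 197 ± 24.8 FPKM in flox (SD, n = 3 each).

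Of 26 genes of droplet biogenesis and other coat proteins, 13 were higher and 13 lower (median 0.00). Fitm2, which is needed for droplets to bud from the endoplasmic reticulum, had 3.57, 6.95 and 7.24 FPKM in NcoR1ΔHep, against 18.02, 10.1 and 8.49 FPKM in flox, with no overlap (-0.97, SE 0.37, unadjusted p = 0.0307, edgeR adjusted p = 0.931). Tm6sf2, which acts in lipoprotein lipidation, had 25.4, 10.7 and 11.4 FPKM in NcoR1ΔHep, against 9.32, 7.87 and 9.43 FPKM in flox (0.83, SE 0.31, unadjusted p = 0.0289, edgeR adjusted p = 0.931). Its groups did not overlap either. Over all tested genes, 8.82% had no overlap in scaled CPM (3.29% higher and 5.53% lower). Hsd17b13, a hepatocyte droplet enzyme, was at 95.6 ± 31.5 FPKM in NcoR1ΔHep and 127 ± 4.57 FPKM in flox (SD, n = 3 each), and had 59.3 FPKM in NcoR1ΔHep 1. Mettl7b, the most abundant gene of this list, was at 574 ± 181 FPKM in NcoR1ΔHep and 420 ± 60.0 FPKM in flox (SD, n = 3 each).

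Of 24 tested PPAR-responsive lipid genes, 9 were higher and 15 lower (median -0.16, but -0.05 without flox 1 and -0.08 without NcoR1ΔHep 2). Acot3, a peroxisomal thioesterase, had 35.8, 0.218 and 4.83 FPKM in NcoR1ΔHep, against 0.598, 0.946 and 0.134 FPKM in flox (4.53, SE 1.49, unadjusted p = 0.0156, edgeR adjusted p = 0.931). Acot2, a mitochondrial thioesterase, differed by 0.96 on the log2 scale (SE 0.52). Fabp1, a fatty acid binding protein, was at 10693 ± 3623 FPKM in NcoR1ΔHep and 8483 ± 966 FPKM in flox (SD, n = 3 each). Cd36, a fatty acid transporter chosen after its values were seen, had 21.6, 4.85 and 17.5 FPKM in NcoR1ΔHep, against 38.6, 16.2 and 5.07 FPKM in flox, and so was highest in flox 1. Of the list's 24 genes, 5 (20.8%) were highest in flox 1, beside 16.4% of all tested genes.

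Of 20 lipogenic genes, 15 were higher and 5 lower. Their median was 0.26, and it was 0.13 without NcoR1ΔHep 1, 0.09 without NcoR1ΔHep 2, 0.39 without NcoR1ΔHep 3, 0.17 without flox 1, 0.13 without flox 2 and 0.40 without flox 3. Insig2, an inhibitor of SREBP processing, had 10.4, 19.6 and 30.2 FPKM in NcoR1ΔHep, against 71.6, 57.0 and 21.6 FPKM in flox (-1.24, SE 0.53, unadjusted p = 0.0460, edgeR adjusted p = 0.931). Acss2, an acetyl-CoA synthetase, differed by 0.59 on the log2 scale (SE 0.30), and Scd1, the most abundant, was at 2429 ± 529 FPKM in NcoR1ΔHep and 2347 ± 336 FPKM in flox (SD, n = 3 each). The mean log2 level of the list, relative to its mean over the libraries, was 0.27, 0.28 and -0.22 in NcoR1ΔHep, against -0.17, -0.38 and 0.22 in flox. It was high in the same 3 libraries as Pnpla3.

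Among 21 regulators of droplet genes, 11 were higher and 10 lower (median 0.03). Pparg, which encodes PPAR-gamma and was chosen after its values were seen, had 2.14, 1.47 and 1.76 FPKM in NcoR1ΔHep, against 5.50, 1.80 and 1.41 FPKM in flox. It was highest in flox 1, as were Cidea, Cidec and Plin4, but NcoR1ΔHep 3 was not raised. Ppara, also chosen after its values were seen, had 18.9, 10.6 and 21.0 FPKM in NcoR1ΔHep, against 20.8, 25.6 and 17.96 FPKM in flox. Arntl, the clock activator BMAL1, had 0.0305, 0.109 and 0.0709 FPKM in NcoR1ΔHep, against 1.29, 0.702 and 0.0983 FPKM in flox (-3.23, SE 0.84, edgeR adjusted p = 0.931), and was 1 of the 5 genes that DESeq2 called. Ppargc1b, a coactivator, differed by 0.72 on the log2 scale (SE 0.35). Cebpa was at 137 ± 10.1 FPKM in NcoR1ΔHep and 135 ± 14.6 FPKM in flox, and Cebpb at 89.8 ± 45.2 FPKM in NcoR1ΔHep and 56.6 ± 40.9 FPKM in flox (SD, n = 3 each).

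Flox 1 held the highest level of Cidea, Cidec, Plin4, Cfd, Serpinb1c, Pparg and Fitm2, and also of all 10 endothelial markers. Over all tested genes, flox 1 was highest in 16.4%. Cidea and Cidec chose the set, and Serpinb1c and Cfd were found by their likeness to Cidea and Cidec. Pparg was chosen after its values were seen. That these genes share a highest library is therefore a description and no result. Cav1, a caveolar protein of endothelium and of droplets that was chosen after its values were seen, had 0.811, 0.878 and 0.805 FPKM in NcoR1ΔHep, against 3.33, 0.632 and 0.429 FPKM in flox. The part of endothelial RNA in the flox 1 values was not tested. NcoR1ΔHep 3, second highest for Cidea, Cidec and Cfd, had the lowest endothelial sum of the 6 libraries. The 10 Kupffer cell markers summed to 396, 606 and 236 CPM in NcoR1ΔHep, against 581, 372 and 573 CPM in flox, and the 12 stellate cell markers to 490, 564 and 446 CPM in NcoR1ΔHep, against 526, 389 and 375 CPM in flox. The 4 tested of 6 cholangiocyte markers summed to 61.2, 170 and 37.9 CPM in NcoR1ΔHep, against 44.4, 43.1 and 56.7 CPM in flox. In none of these 3 lists was flox 1 the highest library.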

How the data were processed

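The authors deposited whole-number counts per gene symbol for the 6 libraries and, for the same genes, FPKM, that is, counts scaled by gene length and library total. In 12656 genes with enough counts, count and FPKM gave 1 length per gene in all libraries (within 1%) in 100% of cases. GRCm38, mm10 and hg38 are builds listed, with no role, per the submitters' processing notes. The aligner, counter and strandedness were not given in the sources used here.

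Counts were filtered with filterByExpr (minimum count 10, total 15), which left 13205 genes with 99.95% of counts, scaled by TMM and tested with edgeR 4.0.16 (quasi-likelihood, R 4.3.3), two-sided, Benjamini-Hochberg threshold 0.05, genotype the only term. Standard errors come from the F statistic. Levels are the authors' FPKM. The test was tried on simulated data. The genes described, the lists and the named-gene rule were chosen with earlier results of these data known. The rule took the members, in each list the 2 genes with the smallest p and the 2 most abundant, and the 3 most similar genes of the 4 most variable members; 1 gene that it named is not reported here.

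Alternatives were DESeq2 1.42.0, RLE, upper-quartile and total-count scaling, other count filters, limma 3.58.1 on log2(FPKM + 1) or log2(FPKM + 0.1), a replicate block, and each library left out.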

Additional observations from a re-analysis of the deposited data

How the results depend on the processing

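Under 16 alternatives the 9 members that passed the count filter gave 141 values, of which 132 had the sign reported and 9 the other sign. None of the 7 members given a test was called under any alternative that tested it. DESeq2 gave no adjusted p for Plin4, and limma with a filter left Plin4 out. The log2 fold change of Cidea ran from -9.39 to 2.89 and that of Cidec from -3.94 to 1.56 over the libraries left out, positive in both only without flox 1. That of G0s2 ran from -0.23 to 0.60 and was -0.20 with limma on log2(FPKM + 1), with and without a filter, -0.20 with log2(FPKM + 0.1) and -0.12 with the replicate block. The cause of these shifts was not tested. Over the libraries left out, Plin4 ran from -3.01 to -0.24 and Pnpla3 from 0.35 to 3.62.

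No gene was called except by DESeq2, which called 5. Genes at an unadjusted p under 0.05 numbered 443, against 691 without a count filter and 175 with the replicate block, and 105 (without flox 1) to 932 (without NcoR1ΔHep 3) with a library left out; the count was 770 without NcoR1ΔHep 2 and 743 without flox 3. List medians ran from -0.12 to 0.011 for triglyceride and sterol ester synthesis, -0.22 to 0.038 for droplet biogenesis -0.054 to 0.024 for regulators, -0.18 to -0.05 for other lipolysis genes, -0.23 to -0.05 for PPAR-responsive genes and 0.09 to 0.40 for lipogenic genes over the libraries left out. The labels do not say whether a replicate number marks a shared animal, litter or day. Deviations of same-numbered libraries from their group means correlated at 0.025, -0.382 and -0.523, and no NcoR1ΔHep library correlated best with its own number. Such deviations cancel within a group, so these correlations cannot decide whether the numbers pair the libraries. Depth limits Plin1 and, outside flox 1 and NcoR1ΔHep 3, Cidea and Cidec. It also limits Plin4 outside flox 1, on 26 to 78 counts, and Pnpla3 in NcoR1ΔHep 3 (38 counts) and flox 2 (26 counts).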

Other observations

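Genes that lie beside the members in GENCODE M21 were chosen after their values were seen. Within 100 kb of Cidec, Jagn1 (6.81 kb away) had 13.9, 19.8 and 13.5 FPKM in NcoR1ΔHep, against 17.4, 10.7 and 18.4 FPKM in flox, with no height in flox 1. Some other neighbours were highest there. Tubb6, 22.9 kb from Cidea, had 6.02 FPKM in flox 1 and 1.80 to 3.18 FPKM elsewhere. Pearson's r of log2(CPM + 1) with Cidea was 0.87 for Tubb6, 0.60 for Mppe1, 0.29 for Afg3l2 and 0.15 for Impa2. For tested neighbours of Cidec it ran from -0.58 to 0.56, and for those of Plin4 from -0.48 to 0.65 (Dpp9). Lrg1, an acute-phase glycoprotein gene 2.08 kb from Plin5, had 121, 404 and 164 FPKM in NcoR1ΔHep, against 158, 159 and 450 FPKM in flox, and so was high in flox 3, the highest library for Plin5, and in NcoR1ΔHep 2, the highest NcoR1ΔHep library for Plin5. Samm50, a gene of mitochondrial outer-membrane assembly 5.005 kb from Pnpla3, had 26.2, 34.2 and 19.9 FPKM in NcoR1ΔHep, against 26.8, 22.5 and 31.1 FPKM in flox. Pnpla3 was lowest in NcoR1ΔHep 3 and flox 2, the libraries with the lowest Samm50. Its highest library, NcoR1ΔHep 1, was not high for Samm50, and Pearson's r of the 2 genes was 0.34.

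Hsd11b1, which regenerates active glucocorticoid and lies 8.09 kb from G0s2, had 438, 271 and 382 FPKM in NcoR1ΔHep, against 324, 382 and 292 FPKM in flox. Its highest and lowest libraries, NcoR1ΔHep 1 and NcoR1ΔHep 2, were those of G0s2, over a narrower range (Pearson's r of log2(CPM + 1) 0.83 over 6 libraries, as a description). No explanation of these patterns was tested.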
